A study of Caenorhabditis elegans with 8 samples.

Results

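Lysozymes and saposin-like proteins are the secreted and lysosomal proteins with which the nematode Caenorhabditis elegans breaks open, permeabilises and digests bacteria. All measured genes whose platform symbol is lys-, ilys- or spp- followed by a number were taken, which gave 38 of 15082 named genes: 10 lys genes, 5 ilys genes and 23 spp genes. They were measured by 55 probes, and 33 of them by a single probe. The gene table of assembly WBcel235 lists 46 symbols of this form, and 8 of these had no probe of that symbol and were not analysed here. The probe named spp-20 on the platform carries the accession that this table now gives to spp-27, and it is called spp-20 below.

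C. elegans lives on bacteria. The lys genes encode lysozymes related to those of protists, and the ilys genes encode lysozymes of the invertebrate type. Both families cleave the peptidoglycan of the bacterial cell wall. The spp genes encode proteins with a saposin fold, which binds lipid membranes. Several of them, the caenopores, open pores in bacterial membranes in the manner of amoebapores, while others resemble the saposins that help lysosomal enzymes to degrade sphingolipids. Many of these genes are expressed in the intestine of feeding worms. The dauer larva is a dispersal stage with a sealed mouth that does not feed, and pharyngeal pumping and feeding resume when it meets food.

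The series measured total RNA of the wild-type strain N2 Bristol on Agilent 2-colour oligonucleotide arrays, and compared dauers (n = 4) and worms at the dauer exit time point of 12 h (n = 4) with mix-stage worms. Dauers came from liquid culture with OP50 bacteria as food, a kanamycin and nystatin addition, selection in detergent and an overnight rest in salt solution. Dauer exit worms were such purified dauers after 12 h on plates with OP50, and mix-stage worms came from growing plates of all developmental stages. A sample was a pool of many worms, and the replicates of a stage came from parallel cultures by the study's methods. The dauer cultures were also kept warmer than the plates, at a temperature on which labels and methods differ. Dauers and dauer exit worms had both come through the liquid culture, its temperature and drugs, and the resting step. Mix-stage worms had not, so these effects cannot be told apart from that of the stage against mix-stage. Between dauers and dauer exit, the move to plates with food and the time since liquid culture go together with the stage. By the study's supplement the mix-stage RNA was a single pool of several mix-stage cultures, so it was treated as 1 control and its own spread is left out of every comparison with it.

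Each value is a log2 ratio of a stage's own RNA over mix-stage RNA, so that 1 unit is a doubling and a negative value means less than in mix-stage. A gene's value is the mean over its probes. Standard deviations (SD) are over the 4 arrays of a stage, and standard errors (SE) and adjusted p-values are those of one limma fit to all named genes on the 8 arrays, with Benjamini-Hochberg adjustment over 15082 genes. A gene was called at an adjusted p of 0.05 or less. Equal amounts of total RNA were labelled, so a ratio is no amount per worm. Signal intensities were not used here, so a member near 0 may be one that did not differ or one close to the background.

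Arrays correlated across genes at 0.467 to 0.786 within dauers and at 0.464 to 0.748 within dauer exit. Dauer replicate 3 stood apart from dauer replicates 1 and 2, with which it correlated at 0.534 and 0.467. With dauer replicate 4 it correlated at 0.732, within the 0.706 to 0.786 among dauer replicates 1, 2 and 4. Dauer replicates 3 and 4 had their own RNA in the dye Cy3, and 1 and 2 in Cy5. The part of dye orientation in this was not tested. Dauer replicate 3 gave the highest of the 4 dauer values in 27 of 38 members (71.1%), against 40% of all named genes. The median member lay at -0.59 on dauer replicate 3, between -2.01 and -1.61 on the other dauer arrays, and between -1.76 and -1.29 on the dauer exit arrays. Of 9 measured genes listed as dauer markers, 2 were called higher in dauers than at dauer exit, namely hsp-12.6 (5.30, SE 0.62) and mtl-1 (4.64, SE 0.55), whereas the cuticle genes col-40 and cut-1 lay near 0 in dauers (0.21 and -0.03) and the dehydration-related gene lea-1 and the aquaporin gene aqp-1 were called lower in dauers than in mix-stage (-1.92 and -2.01, adjusted p = 0.00512 and 0.00263). Of 13 genes of the adult germ line and yolk, 11 were called lower in dauers than in mix-stage and 10 lower at dauer exit, with list medians of -3.51 and -3.89. Over all named genes 13.7% and 9.08% were called lower. These adult markers move together with every comparison against mix-stage, and their part in the values below was not tested.

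Against mix-stage RNA more members were called lower than higher in each stage, as was so for all named genes. A small set of saposins with 1 lysozyme was called higher in dauers. In dauers 21 of 38 members were called lower than in mix-stage, where the background over all named genes was 13.7%, and 6 were called higher, where it was 4.95%. At dauer exit 21 members were again called lower, against a background of 9.08%, and 0 were called higher, against 0.451%. No member was higher at dauer exit at an unadjusted p of 0.05 either, and none was called higher there under any of the other settings tried. The median member lay at -1.45 in dauers and at -1.45 at dauer exit, beside medians of -0.05 and -0.08 over all named genes. In such bulk samples fewer cells of a type and less RNA per cell cannot be told apart.

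Both comparisons use the same mix-stage RNA, so the values of the 2 stages are given side by side. For the same reason the share called in a single stage cannot stand in for a share called in both. In all, 18 members were lower in both stages, a pattern not counted over all named genes. Of the others, 5 saposins (spp-9, spp-11, spp-12, spp-20 and spp-21) were higher in dauers and not called at dauer exit, and lys-3 was higher in dauers and lower at dauer exit. A further 3 were called lower in dauers and not at dauer exit (lys-6, spp-4 and spp-14), 2 were called lower at dauer exit and not in dauers (ilys-3 and spp-15), and 9 were called in no comparison. All 8 arrays lay below 0 in 19 members (50.0%), against 10.5% of all named genes.

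**Figure D1:**
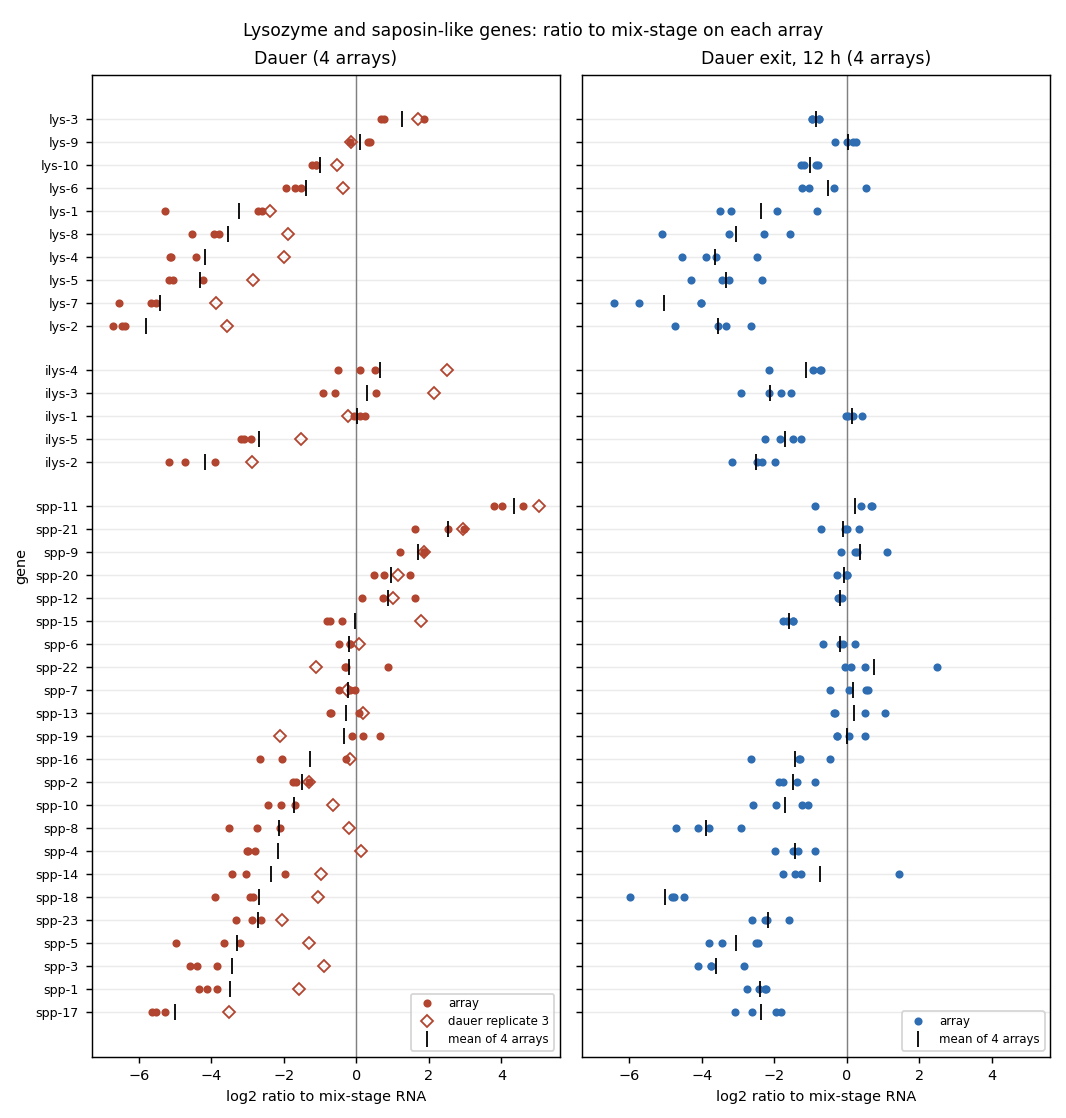
Log2 ratio to mix-stage RNA of each of the 38 members (rows, sorted by dauer mean within the lys, ilys and spp genes) on each of 4 dauer arrays (left, dauer replicate 3 as an open diamond) and 4 dauer exit arrays (right), with the mean as a vertical tick. Most rows lie left of 0 on both sides, spp-11, spp-21, spp-9, spp-20, spp-12 and lys-3 lie right of 0 on all 4 dauer arrays, and dauer replicate 3 gives the highest dauer value in 27 rows.

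The lys genes had the lowest medians of the 3 groups. Of 10 lys genes, 8 were called lower in dauers and 8 at dauer exit, with medians of -3.39 and -2.71. The lowest was lys-2, an intestinal lysozyme with a role in defence, which measured -6.48, -6.39, -3.58 and -6.72 in dauers, and -3.33, -4.74, -3.54 and -2.64 at dauer exit. Its mean of -5.79 in dauers was 55.4-fold below mix-stage (adjusted p = 8.97e-05), and its mean of -3.56 at dauer exit was 11.8-fold below (adjusted p = 0.00212). The stages overlapped only because of dauer replicate 3, and the difference between them was not called (-2.23, SE 0.71, adjusted p = 0.140). Without dauer replicate 3 it was -2.97 and was called (adjusted p = 0.00835).

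The lysozyme gene lys-7, which contributes to resistance against several pathogens and is a known target of insulin signalling through DAF-16, was as low at dauer exit as in dauers. It measured -5.53, -5.68, -3.89 and -6.56 in dauers, and -4.02, -6.44, -4.01 and -5.72 at dauer exit. These are means 42.6-fold and 33.1-fold below mix-stage (adjusted p = 1.00e-04 and 0.000245). The stages overlapped fully, and their difference was -0.36 with an SE of 0.69 (adjusted p = 0.890).

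The adjacent genes lys-4 and lys-5 followed the same course. Dauers measured -4.42, -5.11, -2.0 and -5.14 for lys-4, and dauer exit worms -2.47, -4.56, -3.61 and -3.88. For lys-5 the dauer values were -4.25, -5.17, -2.84 and -5.05, and the dauer exit values -3.25, -4.30, -3.43 and -2.35. Both were called lower in each stage, by 18.0-fold and 20.1-fold in dauers and by 12.4-fold and 10.1-fold at dauer exit. The next gene in the row, lys-6, was milder, at -1.39 ± 0.70 in dauers (SD, n = 4; adjusted p = 0.0143) and -0.53 ± 0.79 at dauer exit (adjusted p = 0.438), and its dauer call was lost without dauer replicate 1, 2 or 4 (adjusted p up to 0.0728).

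Of the remaining low lysozymes, lys-8, a further intestinal defence gene, measured -3.93, -3.79, -1.90 and -4.54 in dauers, and -2.30, -5.09, -3.24 and -1.57 at dauer exit. lys-1, whose product also acts in defence, averaged -3.25 ± 1.37 in dauers and -2.37 ± 1.22 at dauer exit, and its dauer mean rests in part on dauer replicate 4 at -5.29, against -2.72 to -2.37 on the other 3 dauer arrays. The exit call of lys-1 was lost without dauer exit replicate 2, 3 or 4 (adjusted p up to 0.127). The gene lys-10 was lower by a smaller and even margin, at -0.99 ± 0.31 in dauers (adjusted p = 0.00232) and -1.03 ± 0.23 at dauer exit (adjusted p = 0.00404). Among the lys genes, lys-9 alone was called in no comparison, at 0.10 ± 0.29 and 0.02 ± 0.26.

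One lysozyme ran the other way. lys-3 measured 0.68, 0.76, 1.69 and 1.87 in dauers, and -0.95, -0.76, -0.97 and -0.76 at dauer exit. All dauer arrays lay above mix-stage and all dauer exit arrays below it, without overlap. Its transcript was 2.38-fold above mix-stage in dauers (adjusted p = 0.00304) and 1.81-fold below it at dauer exit (adjusted p = 0.0361), and the stages differed by 2.11 on the log2 scale (SE 0.30, adjusted p = 0.00670). The exit value was even across arrays, but its call against mix-stage was lost without any 1 dauer exit array (adjusted p up to 0.121). The difference between the stages was 1.57 on arrays with the stage's own RNA in Cy5 and 2.65 on those with it in Cy3, and it was called whichever array was left out. The dauer level of lys-3 against mix-stage was 0.72 in Cy5 alone (adjusted p = 0.0662) and 1.78 in Cy3 alone (adjusted p = 0.0126).

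The invertebrate-type lysozymes split into 3 courses. ilys-2 was low in both stages, with -3.90, -5.18, -2.87 and -4.72 in dauers, and -2.34, -3.18, -2.48 and -1.98 at dauer exit. That is 18.0-fold below mix-stage in dauers (adjusted p = 7.2e-05) and 5.64-fold below at dauer exit (adjusted p = 0.00183). ilys-5 was also called low in both, with -2.90, -3.19, -1.52 and -3.11 in dauers, and -1.86, -2.25, -1.48 and -1.25 at dauer exit, a mean of 2 probes that did not behave alike. Their differences between the stages were not called with all arrays (-1.67 for ilys-2, adjusted p = 0.104, and -0.97 for ilys-5, adjusted p = 0.271).

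ilys-3, which acts in the pharynx and intestine in the breakdown of ingested bacteria, was close to mix-stage in dauers and low at dauer exit. It measured 0.53, -0.92, 2.14 and -0.59 in dauers, and -1.82, -2.93, -2.14 and -1.54 at dauer exit. Every dauer array lay above every exit array, yet the dauer values scattered widely (SD 1.38) and the difference of 2.39 (SE 0.63) was not called (adjusted p = 0.0733). Its level at dauer exit was 4.31-fold below mix-stage (adjusted p = 0.0166), a call lost without dauer exit replicate 1, 2 or 3 (adjusted p up to 0.0990). ilys-4 showed the same order without overlap (0.66 ± 1.31 in dauers, -1.13 ± 0.68 at dauer exit) and was called in no comparison, and ilys-1 lay at 0 in both (0.01 ± 0.20 and 0.15 ± 0.20).

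With all arrays a set of 5 saposins was called more abundant in dauers than in mix-stage worms. The largest value belonged to spp-11, which measured 4.00, 3.78, 5.03 and 4.60 in dauers, and 0.40, 0.70, -0.89 and 0.68 at dauer exit. The lowest dauer array was more than 3 units above the highest exit array. The transcript was 20.5-fold above mix-stage in dauers (adjusted p = 4.37e-05), not called against mix-stage at dauer exit (adjusted p = 0.802), and 17.5-fold higher in dauers than at dauer exit (4.13, SE 0.41, adjusted p = 0.00187). On arrays with own RNA in Cy5 the difference was 3.35 and on those with own RNA in Cy3 it was 4.91, and without dauer replicate 3 it was 3.91.

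spp-21 and spp-9 are separated by no other coding gene on chromosome X. spp-21 measured 1.61, 2.54, 2.94 and 2.96 in dauers, and -0.70, 0.00, 0.34 and -0.06 at dauer exit, which is 6.13-fold higher in dauers than at dauer exit (2.61, SE 0.35, adjusted p = 0.00497). spp-9, a gene whose reporter is held down by DBL-1 (BMP-like) signalling in the intestine, measured 1.20, 1.87, 1.87 and 1.87 in dauers, and 0.28, 0.22, 1.10 and -0.15 at dauer exit. The 2 stages of spp-9 did not overlap, though the lowest dauer array (1.20) was close to the highest exit array (1.10), and the difference of 1.34 (SE 0.30) just passed the threshold (adjusted p = 0.0424). It was called in 2 of the 8 fits that leave out an array (adjusted p up to 0.125). The dauer level of spp-9 was 3.25-fold above mix-stage and was called in all 8 of those fits.

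spp-20 and spp-12 were raised less. spp-20 measured 0.47, 1.48, 1.16 and 0.75 in dauers, and 0.01, -0.28, 0.01 and -0.02 at dauer exit. It was 1.95-fold above mix-stage in dauers (adjusted p = 0.00444), and its difference between the stages was the nearest of all members to the threshold without passing it (1.03, SE 0.25, adjusted p = 0.0563). It passed with array weights (adjusted p = 0.0414) and without dauer replicate 1 (adjusted p = 0.0420). spp-12, a caenopore expressed in pharyngeal neurons that is needed for resistance to Bacillus thuringiensis, measured 0.72, 0.14, 1.00 and 1.60 in dauers, and -0.22, -0.23, -0.22 and -0.14 at dauer exit. All dauer arrays lay above mix-stage and all exit arrays a little below it. Its dauer level was 1.82-fold above mix-stage (adjusted p = 0.0178), a call lost without dauer replicate 3 or 4 (adjusted p up to 0.0738). On arrays with own RNA in Cy5 alone, the members called above mix-stage in dauers were spp-9, spp-11 and spp-21. There 235 of all named genes were called higher, and in Cy3 alone 6 members and 942 genes. In Cy5 alone spp-12 was at 0.43 (adjusted p = 0.283) and spp-20 at 0.97 (adjusted p = 0.0975), against 1.30 and 0.96 in Cy3 alone.

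Of the pharynx genes listed, 3 of 9 measured were called higher in dauers than at dauer exit and 0 lower, namely the pharyngeal muscle genes tnc-2 (3.07), tni-4 (2.72) and myo-2 (2.52). Against mix-stage the same 3 were higher in dauers and 2 pharyngeal gland genes were lower, phat-3 (-1.48) and phat-4 (-1.48). Over all named genes 2.13% were called higher in dauers than at dauer exit. Against mix-stage 4.95% of all named genes were called higher in dauers and 13.7% lower. The list's median over its genes lay between -0.10 and 0.70 on the dauer arrays and between -0.68 and -0.07 on the exit arrays. Its part in the values of spp-12 and the other raised saposins was not tested.

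The lowest saposin in dauers was spp-17, which measured -5.29, -5.64, -3.52 and -5.54 in dauers, and -1.97, -2.63, -1.81 and -3.09 at dauer exit. It was 32.0-fold below mix-stage in dauers (adjusted p = 5.02e-05) and 5.18-fold below at dauer exit (adjusted p = 0.00274). It was the sole member called lower in dauers than at dauer exit (-2.63, SE 0.49, adjusted p = 0.0209), and the sole one with every dauer array below every exit array. That call held in 3 of the 8 fits that leave out an array and was lost without dauer replicate 1 or 4 or dauer exit replicate 1, 2 or 3 (adjusted p up to 0.0741). Without dauer replicate 3 the difference was -3.12 (adjusted p = 0.00243).

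The caenopore genes spp-1, spp-3 and spp-5 were low in both stages. spp-5, whose product kills bacteria in the gut, measured -4.99, -3.65, -1.32 and -3.22 in dauers, and -2.46, -3.45, -3.79 and -2.52 at dauer exit. spp-3 measured -4.60, -4.40, -0.89 and -3.86 in dauers, and -4.09, -3.74, -2.84 and -3.74 at dauer exit. spp-1 measured -3.84, -4.35, -1.59 and -4.12 in dauers, and -2.41, -2.75, -2.25 and -2.23 at dauer exit. In each of the 3 genes dauer replicate 3 was the highest dauer array by more than 1 unit and the stages overlapped. In dauers they were 9.81-fold, 10.8-fold and 11.1-fold below mix-stage for spp-5, spp-3 and spp-1 (adjusted p = 0.00129, 0.00160 and 0.000280), and at dauer exit 8.31-fold, 12.2-fold and 5.31-fold below (adjusted p = 0.00411, 0.00261 and 0.00426). All 6 probes of spp-1 lay between -3.77 and -3.29 in dauers.

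Among the saposins below mix-stage at dauer exit, spp-18 measured -2.86, -3.91, -1.06 and -2.94 in dauers, and -4.83, -6.0, -4.48 and -4.76 at dauer exit. It was the lowest saposin at dauer exit, 32.3-fold below mix-stage (adjusted p = 0.000116), and 6.47-fold below in dauers (adjusted p = 0.00145). The stages did not overlap and the difference of 2.32 (SE 0.57) was close to the threshold (adjusted p = 0.0582). With the arrays brought to a common spread it was called (3.09, adjusted p = 0.0324). spp-8 measured -2.74, -3.51, -0.20 and -2.11 in dauers, and -3.80, -4.71, -2.92 and -4.12 at dauer exit, where it was 14.8-fold below mix-stage (adjusted p = 0.000853), and its difference of 1.75 was not called (adjusted p = 0.227), though it passed with the replicate number as a block (adjusted p = 0.0480). Its dauer call was lost without dauer replicate 1 (adjusted p = 0.0563).

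spp-15 averaged -0.04 ± 1.22 in dauers and -1.60 ± 0.14 at dauer exit. Dauer replicate 3 lay at 1.77 and the other dauer arrays between -0.80 and -0.39, so the arrays lay on both sides of 0, and without dauer replicate 3 the mean was -0.64 (adjusted p = 0.0246) and the difference between the stages 0.96 (adjusted p = 0.0464). The exit call (adjusted p = 0.0250) was lost without any 1 dauer exit array (adjusted p up to 0.0999). spp-4 and spp-14 were called lower in dauers (-2.16 ± 1.54 and -2.35 ± 1.11) and not at dauer exit (-1.43 ± 0.45 and -0.75 ± 1.47), and both dauer calls were lost without dauer replicate 1 or 4. For spp-4 dauer replicate 3 lay at 0.13 against -3.01 to -2.79 on the other dauer arrays, and for spp-14 dauer exit replicate 4 lay at 1.44 against -1.76 to -1.26 on the other exit arrays.

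The saposins not called anywhere were spp-6, spp-7, spp-13, spp-16, spp-19 and spp-22. Of these, spp-6, spp-7, spp-13 and spp-19 had means between -0.35 and 0.21 in both stages, with dauer replicate 3 of spp-19 at -2.10. spp-22 averaged -0.21 ± 0.81 in dauers and 0.76 ± 1.18 at dauer exit, where dauer exit replicate 1 reached 2.49. spp-16 was below 0 on all 8 arrays (-1.29 ± 1.25 in dauers, adjusted p = 0.0856, and -1.43 ± 0.90 at dauer exit, adjusted p = 0.0907).

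In some members with several probes the probes of one gene gave different values, and whether transcripts, probe orientation or weak signal differed between them was not tested. spp-2 averaged -1.51 in dauers and -1.47 at dauer exit over 4 probes, but its RefSeq probe lay at -4.85 in dauers and -4.56 at dauer exit while its 3 probes annotated with an expressed sequence tag (EST) lay between -0.57 and -0.22 in dauers and between -0.75 and -0.18 at dauer exit. With the median of its probes in place of the mean, spp-2 was at -0.67 in dauers (adjusted p = 0.0470) and at -0.63 at dauer exit, where it was no longer called (adjusted p = 0.0893). In spp-23, 5 RefSeq probes lay between -3.38 and -3.04 in dauers and between -2.86 and -2.38 at dauer exit, and 1 EST probe at 0.08 and 0.16. The mean over all 6 spp-23 probes was -2.63, -3.32, -2.06 and -2.88 in the dauer samples, and -2.25, -2.63, -1.61 and -2.19 in the dauer exit samples, and was called lower in both stages (adjusted p = 7.29e-05 and 0.000340).

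ilys-5 had 2 RefSeq probes, for different transcript accessions, and they lay at -5.49 and 0.12 in dauers and at -3.17 and -0.25 at dauer exit. spp-10, which encodes a protein resembling vertebrate prosaposin, was called lower in both stages over the mean of its 4 probes (-1.72 and -1.71), and its exit call was lost with the median of the probes (-1.21, adjusted p = 0.0612) and without dauer exit replicate 2 (adjusted p = 0.0563). The probe for one of its transcript accessions was at -2.25 in dauers and -3.72 at dauer exit, and the 3 probes for the other lay between -1.65 and -1.42 in dauers and between -1.40 and -0.72 at dauer exit. The difference between the stages was thus positive for the first probe (1.47, adjusted p = 0.472) and negative for the other 3, and was called for none.

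**Figure D2:**
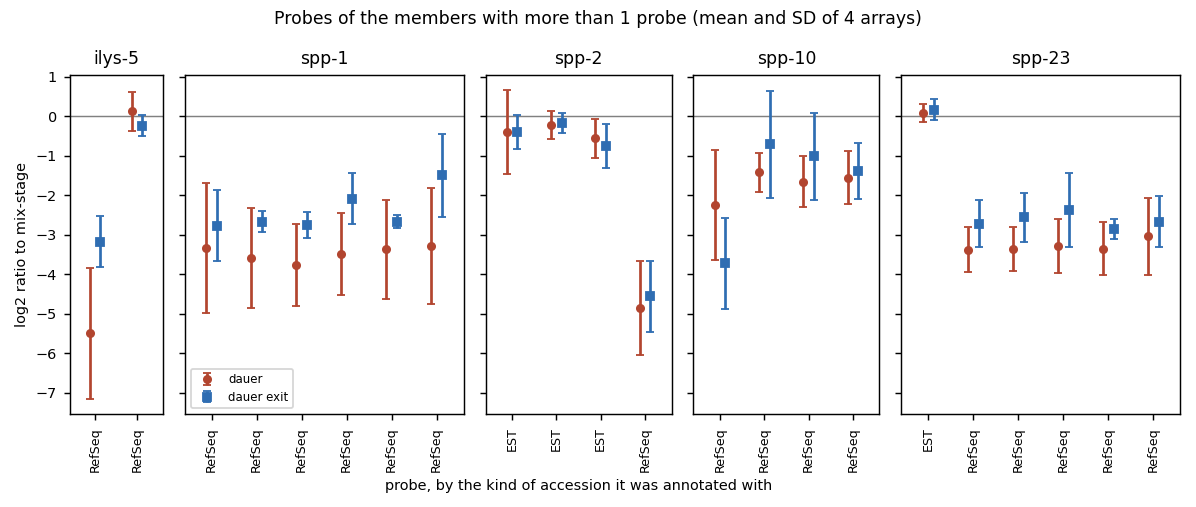
Log2 ratio to mix-stage RNA (mean and SD of 4 arrays) of each probe of the 5 members with more than 1 probe, dauer (circles) beside dauer exit (squares), labelled by whether the probe is annotated with a RefSeq transcript or an EST. The 6 spp-1 probes lie together, while in spp-2, spp-23 and ilys-5 some probes lie near 0 and others between -5.49 and -2.38.

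Setting dauers directly against dauer exit addresses which members change within 12 h on food. Of 38 members, 4 were called higher in dauers (spp-11, spp-21, lys-3 and spp-9), against a background of 2.13%, and 1 was called lower (spp-17), against 1.88%. The unadjusted p was under 0.05 for 15 members, a count not made over all named genes. All dauer arrays lay above all exit arrays in 10 members (lys-3, ilys-3, ilys-4, spp-9, spp-11, spp-12, spp-15, spp-18, spp-20 and spp-21), where the background was 5.38%, and below them in spp-17 alone, where it was 4.19%. The median difference over the members was -0.19, beside 0.03 over all named genes, and 15 members were above 0 and 23 below. Among the 18 members called low in both stages, spp-17 alone was called between the stages.

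These counts moved with dauer replicate 3. Without it 10 members were called, 4 higher in dauers (lys-3, spp-11, spp-15 and spp-21) and 6 lower (lys-2, ilys-2, ilys-5, spp-1, spp-4 and spp-17), while spp-9 was no longer called (adjusted p = 0.0796). The differences among the newly lower ones were -2.97 for lys-2, -2.11 for ilys-2, -1.69 for spp-1, -1.50 for spp-4 and -1.36 for ilys-5. Calls over all named genes moved the same way, to 239 higher and 371 lower in dauers, from 322 and 283 with all arrays. Leaving out dauer replicate 3 also leaves more dauer arrays with own RNA in Cy5 than in Cy3. Leaving out other arrays gave between 3 and 7 called members and between 288 and 743 called genes. In all 8 fits that leave out an array, spp-11, spp-21 and lys-3 were called. Among arrays with own RNA in Cy5 alone 0 members and 0 of all named genes were called. Among those with own RNA in Cy3 alone 276 of all named genes were called, and 3 members (lys-3, spp-11 and spp-21). For the other 2, the difference was 1.47 in Cy5 and 1.21 in Cy3 for spp-9, and -2.93 in Cy5 and -2.32 in Cy3 for spp-17.

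**Figure D3:**
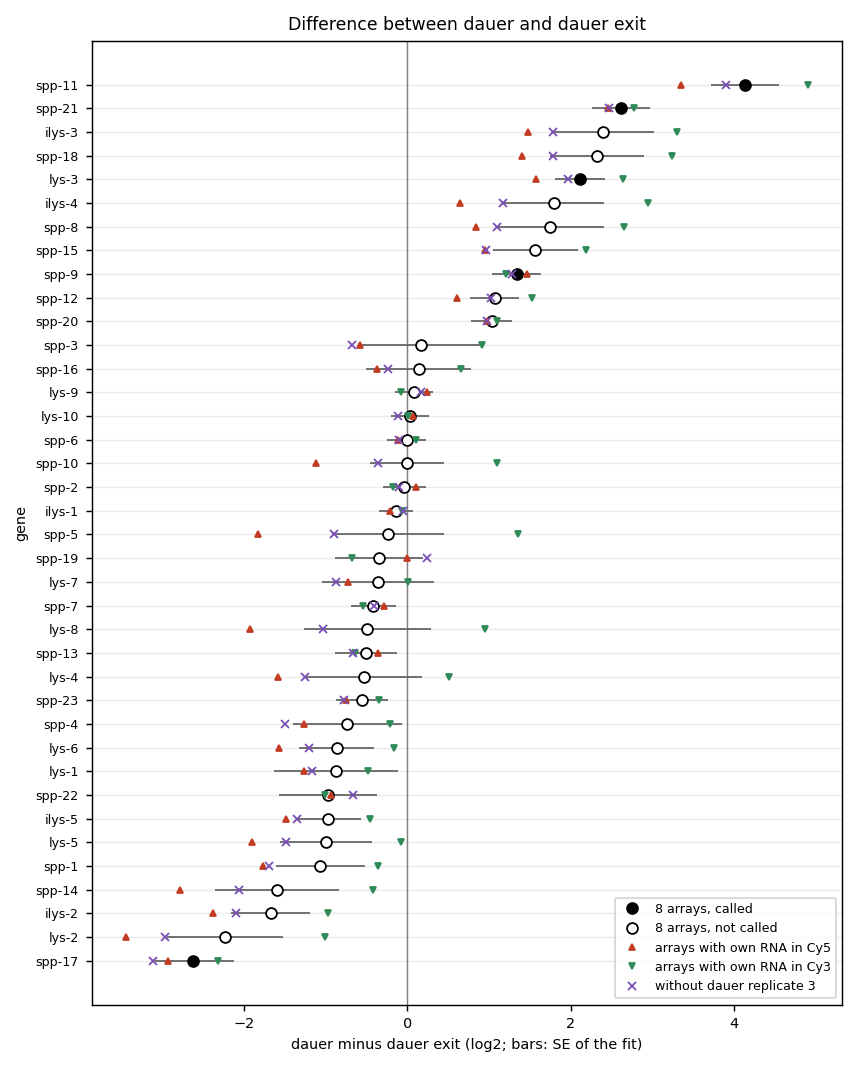
Difference dauer minus dauer exit (log2) of each member, sorted, with the SE of the fit as a bar and filled circles for the 5 called members; triangles give the difference on the arrays of each dye orientation and crosses that without dauer replicate 3. The triangles of spp-11, spp-21, lys-3, spp-9 and spp-17 lie on the same side of 0 as their circles, and crosses lie left of the circles in most other rows.

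Many members are neighbours in the genome. By the WBcel235 gene table, 22 members fall into 8 runs in which no more than 2 other coding genes lie between one member and the next. Within the run lys-1, lys-2 and lys-3 on chromosome V, with no coding gene between them, the first 2 were low in both stages and lys-3 was above mix-stage in dauers. In ilys-3, ilys-2 and ilys-1 on chromosome IV the dauer means were 0.29, -4.17 and 0.01. In the 5-gene run on chromosome X the caenopore genes at its ends, spp-3 and spp-5, were low in both stages, spp-2 and spp-4 were less so by their gene means, and spp-6 in the middle lay at -0.19 in both.

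In some other runs the members lay on one side of mix-stage in dauers. spp-9 and spp-21 were both raised in dauers, spp-17 and spp-23 on chromosome I were both low in both stages, and so were spp-10 and spp-8 on chromosome IV. In the low pairs the differences between dauers and dauer exit were less alike. They were -2.63 for spp-17 and -0.55 for spp-23, and -0.01 for spp-10 and 1.75 for spp-8. In the pair spp-20 and spp-19 on chromosome V, the dauer mean was 0.97 for the spp-20 probe and -0.35 for spp-19, and the 2 coding genes between them were not analysed here. Adjacent lysozyme genes are similar in sequence, and how far their probes bind the neighbour's transcript was not tested.

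**Figure D4:**
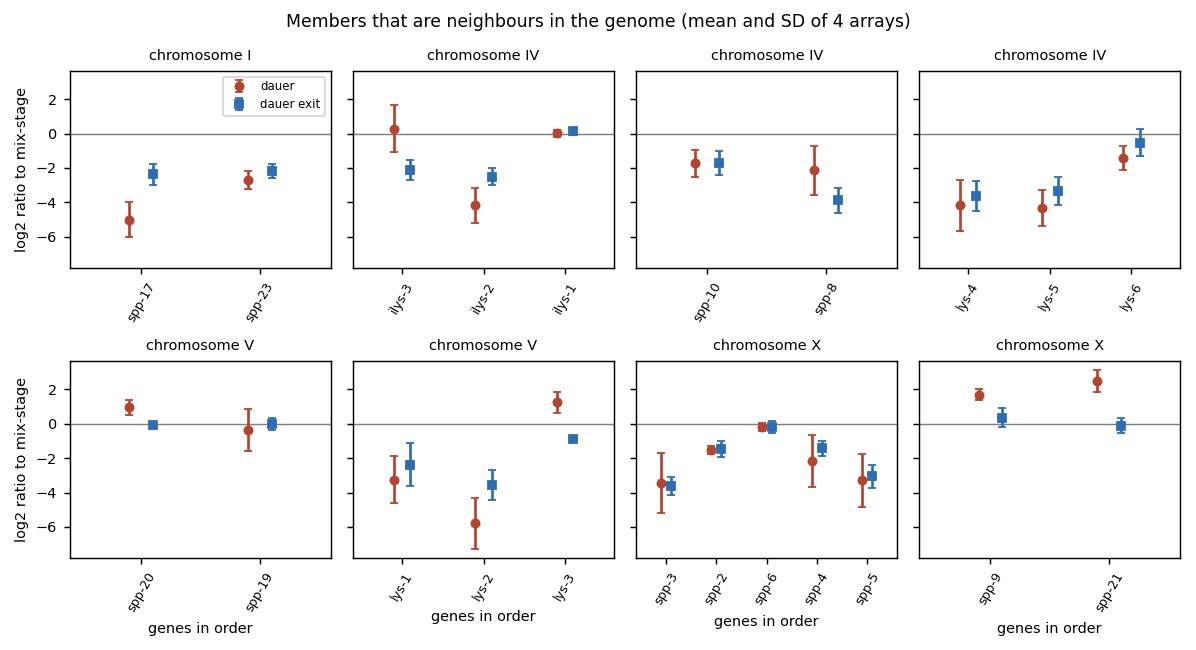
Log2 ratio to mix-stage RNA (mean and SD of 4 arrays) of the 22 members in 8 runs of neighbouring genes, in gene order, dauer (circles) beside dauer exit (squares). lys-3 lies above 0 in dauers beside lys-1 and lys-2 far below it, spp-6 lies near 0 between low neighbours, and spp-9 and spp-21 are both above 0 in dauers.

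Genes that work beside the members were counted for comparison. The counts in these lists are to be read beside the shares over all named genes. In dauers 13.7% were called lower than in mix-stage and 4.95% higher, and at dauer exit 9.08% and 0.451%. Between the stages 1.88% were called lower in dauers and 2.13% higher. Of 17 measured digestive peptidases, the aspartic, cysteine and serine proteases of the gut lumen and lysosome, 12 were called lower and 1 higher in dauers than in mix-stage, 6 lower and 0 higher at dauer exit, and 4 lower and 0 higher in dauers than at dauer exit. The last were led by asp-2 (-3.17), pcp-2 (-2.95) and pcp-4 (-2.89), and the list's median difference was -1.06, beside -0.19 for the members. Of 13 measured genes of lysosomes and sphingolipid turnover, 7 were called lower in dauers and 8 at dauer exit, 0 were higher in either, and 0 were called between the stages, with 1 of them at -3.71 and -2.83 (nuc-1, a nuclease that degrades DNA in lysosomes) and another at -2.82 and -3.81 (asah-1, an acid ceramidase).

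Of 20 regulators of intestinal defence, 4 were called lower in dauers than in mix-stage and 3 at dauer exit, shares to be read against 13.7% and 9.08% of all named genes, with medians of -0.22 and -0.20, and the single call between the stages was fasn-1, a fatty acid synthase gene (-1.25). Antimicrobial peptides of the cnc, abf, fip and fipr groups, which are mostly linked to the epidermis and pharynx, were mixed. Of 50 such genes, 11 lay above mix-stage in dauers by the test and 6 below it, 0 above and 4 below at dauer exit, and 7 were called higher and 3 lower in dauers than at dauer exit, led by cnc-11 (3.66), fip-5 (-2.56) and cnc-3 (-2.54).

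Of 9 measured intestine markers, 4 were called lower and 1 higher in dauers than in mix-stage, and 1 lower and 0 higher at dauer exit. The list's median lay between -2.05 and -0.37 on the dauer arrays and between -1.59 and -0.75 on the exit arrays. The gut master regulator elt-2 was at -0.70 in dauers and -1.23 at dauer exit and was not called in either (adjusted p = 0.248 and 0.0667), and the brush border actin act-5 was the sole marker called between the stages (-2.38). The part of gut content in the low values of the lysozymes and saposins was not tested.

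**Figure D5:**
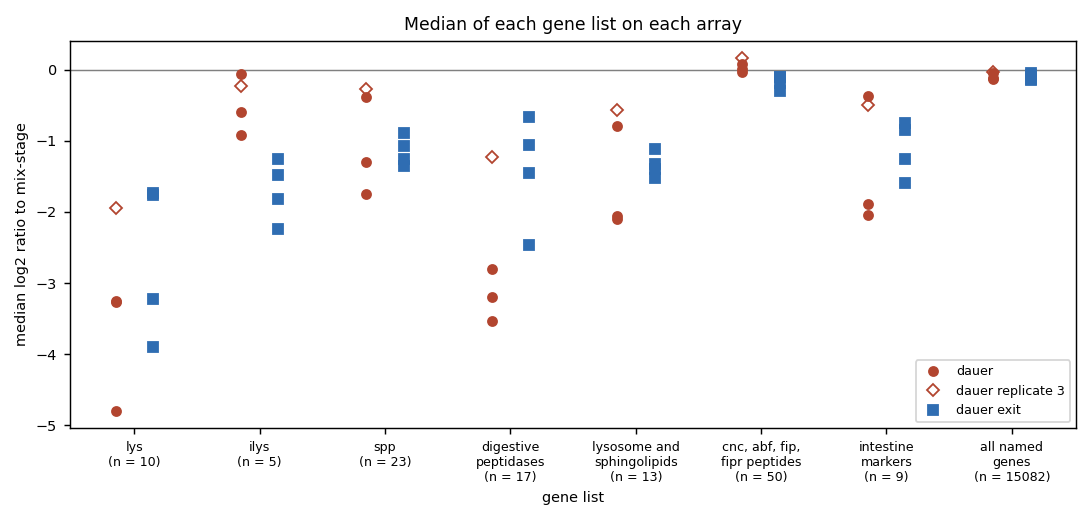
Median log2 ratio to mix-stage RNA of each gene list on each array, dauer (circles, dauer replicate 3 as an open diamond) beside dauer exit (squares), with the number of genes under each list. Among the lists drawn, the lys genes and the digestive peptidases have lower dauer medians than the others on every array, the cnc, abf, fip and fipr peptides and all named genes lie near 0, and dauer replicate 3 lies at or near the top of the dauer values in most lists.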

How the data were processed

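Per the study's methods, the authors read the arrays with a GenePix scanner, applied normexp background correction and then a lowess normalization within each array, with weights that differed between probes and spike-in controls, all in limma (version: not given in the sources used here). Deposited were log2 ratios, Cy5 over Cy3, with array medians between -0.09 and 0.14. By the dyes in the labels each ratio was set as own RNA relative to mix-stage, with 2 arrays per stage in each orientation. Of 45220 features, 44123 had values and 27263 carried 1 gene symbol in the platform table. Probes were averaged per platform symbol, and the WBcel235 gene table matched 35 members by accession and 3 by symbol. One coefficient per stage was fitted with lmFit and eBayes of limma 3.58.1 in R 4.3.3 (6 residual degrees of freedom). The fit was tested on simulated data with independent normal noise for each gene. These held no dye effect and no deviating array, so the test does not cover either.

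Values were printed per array for called members among the 5 largest changes in either direction of a comparison within the lys, ilys or spp genes, and for the member just past the threshold. Members of other lists were mostly named where they were among the 3 largest calls. The uncalled col-40, cut-1 and elt-2, and phat-3 and phat-4 with smaller calls, were named besides. The members, lists and rules were chosen with earlier results of these data known. Alternatives were median centring, a common spread, a dye term, each dye orientation alone, the median of probes, a probe-level fit, updated symbols, array weights, the replicate number as a block, each array left out, and, chosen after seeing the data, RefSeq probes only. In the probe-level fit the probe with the smallest p stood for its gene in each comparison. Depth does not apply to arrays, and their number limits the precision.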

Additional observations from a re-analysis of the deposited data

Results flagged for a closer look

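Of 76 groups of 4 arrays (38 members in 2 stages), 11 held 1 array set apart from the other 3, by Dixon's criterion for groups of this size. The criterion is relative to the spread of the group, so it also flags small departures. Chance gives about 5% of groups. Dauer replicate 3 was that array in 5 of them, for lys-2 at -3.58 (others -6.72 to -6.39), lys-10 at -0.53 (others -1.22 to -1.11), spp-4 at 0.13 (others -3.01 to -2.79), spp-15 at 1.77 (others -0.80 to -0.39) and spp-17 at -3.52 (others -5.64 to -5.29), each time above the others. The remaining ones in dauers were lys-1 in dauer replicate 4 at -5.29 (others -2.72 to -2.37) and spp-9 in dauer replicate 1 at 1.20 (others 1.865 to 1.873). In dauer exit replicate 2 they were ilys-4 at -2.14 (others -0.95 to -0.71) and spp-20 at -0.28 (others -0.02 to 0.01). In dauer exit replicate 4 they were spp-12 at -0.14 (others -0.23 to -0.22) and spp-14 at 1.44 (others -1.76 to -1.26).

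The ratio to mix-stage differed between dauers and dauer exit by the limma test for spp-11 (4.13), spp-21 (2.61), lys-3 (2.11), spp-9 (1.34) and spp-17 (-2.63). For spp-12 all dauer arrays lay above 0 and all exit arrays below it, and the difference of 1.07 did not pass the test (adjusted p = 0.0894).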

How the results depend on the processing

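For members called in a comparison with all arrays or under at least 1 alternative, 265 of 304 values for 16 members between the stages, 489 of 522 for 29 members in dauers against mix-stage and 387 of 432 for 24 members at dauer exit against mix-stage kept their direction and their side of the threshold. The call was lost in 22, 23 and 36 and gained in 17, 4 and 9. The counted values include some that could not move. For the 33 members with 1 probe, the median of probes, updated symbols, RefSeq probes and the probe-level fit repeated the log2 value. Against mix-stage, leaving out an array of the other stage did so too. Among all values counted, direction turned only for spp-15 in dauers, from -0.035 to 0.0204 with centred arrays, 0.0097 on a common spread, 0.693 in Cy3 alone and 0.221, 0.195 and 0.0825 without dauer replicate 1, 2 and 4, while without dauer replicate 3 it was -0.638. Over all 38 members, called or not, direction turned under some alternative for 12 members between the stages, 8 in dauers and 7 at dauer exit. None of these was called in that comparison, and their values with all arrays were at most 0.54, 0.66 and 0.75 from 0. They include ilys-3 and ilys-4 in dauers. Between the stages, 5 members and 605 genes were called. Cy5 alone called 0 and 0, Cy3 alone 3 and 276, and array weights 9 and 778. The members that array weights added were ilys-3, spp-12, spp-18 and spp-20. With the arrays on a common spread 4 members and 476 genes were called, the members all higher in dauers. There spp-17 was lost (adjusted p = 0.114), and so was spp-9 (adjusted p = 0.0974), while spp-18 was gained. Against mix-stage, Cy3 alone called 1796 genes in dauers, where 2809 were called with all arrays, and of these 52.4% were higher, against 26.6% with all arrays and 9.7% in Cy5 alone. At dauer exit 21 members and 1438 genes were called, Cy3 alone called 8 members and 673 genes, Cy5 alone 619 genes and array weights 2243 genes. The cause was not tested, beyond the fewer arrays of a single orientation.

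Leaving out 1 array gave 3 to 10 members and 288 to 743 genes between the stages, 23 to 28 members and 2053 to 3013 genes in dauers, and 16 to 23 members and 696 to 1863 genes at dauer exit. RefSeq probes alone moved spp-2 to -4.85 in dauers and -4.56 at dauer exit.

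Whether the replicate numbers pair the samples could not be decided. Deviations of same-numbered arrays correlated at 0.07, -0.05, 0.23 and -0.15. The positive values belong to replicates 1 and 3, whose arrays shared a dye orientation, and the negative ones to replicates 2 and 4, whose arrays did not. With the replicate number as a block 6 members and 491 genes were called between the stages, namely lys-3, spp-8, spp-11, spp-17, spp-18 and spp-21 (spp-8 adjusted p = 0.0480, spp-18 adjusted p = 0.0244), while spp-9 was lost (adjusted p = 0.0686). Dim probes, another background correction and slides were not examined, because intensities were not used here, so a ratio near 0 for a weakly expressed member has an unknown signal over background.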
